A study of Mus musculus with 3 samples.

Results

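The genes described here are the aldehyde oxidases Aox1, Aox3 and Aox4, the related xanthine dehydrogenase gene Xdh, the aldehyde dehydrogenases Aldh1a1, Aldh1a2, Aldh1a3, Aldh1a7 and Aldh3a1, and the cytochrome P450 gene Cyp1b1. They are 10 of 18193 genes measured in NIH3T3 cells with and without overexpressed YAP. Each was read by the probe sets whose annotation names that gene alone, 14 of 45037 probe sets on the array. Aox3 and Aox1 were far lower, and Aldh1a1 far higher, in cells overexpressing mtYAP than in control cells. Aldh3a1 was higher only on the array of cells overexpressing wild-type YAP, and its level was low on all 3 arrays. The genes were chosen by their function and by their differences from control on these same 3 arrays, so the size of those differences is a description and supports nothing by itself.

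Aldehyde oxidases and xanthine dehydrogenase are sister enzymes that carry a molybdenum cofactor, iron-sulphur clusters and a flavin. Aldehyde oxidases oxidize aldehydes, retinaldehyde among them, and many nitrogen heterocycles, and xanthine dehydrogenase makes uric acid from hypoxanthine and xanthine at the end of purine breakdown. The ALDH1A dehydrogenases turn retinaldehyde into retinoic acid, which acts through nuclear receptors, and a fibroblast can both make and answer this signal. Aldh3a1 and Cyp1b1 belong to the genes that the aryl hydrocarbon receptor, a sensor of ring-shaped xenobiotics, switches on in many cells.

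RNA came from NIH3T3 cells, an immortalized fibroblast line from NIH/Swiss mouse embryos, in 3 conditions with 1 array each. The control cells are labelled untransduced, the mtYAP cells express Yap S112A, in which a serine that the Hippo pathway kinases LATS1/2 phosphorylate is replaced by alanine, and the YAP cells express wild-type Yap. The YAP sequences were carried by a retrovirus with a puromycin resistance gene, and infected cells that survived puromycin were used, with no mention of cloning. The methods also name an empty virus without saying whether it was on the control array, the arrays were run to study growth past confluence although the density of each culture at RNA preparation is not stated, and all cells were grown in 10% calf serum. Levels are log2 values per probe set as the authors normalized them by robust multiarray analysis (RMA), so that 1 unit is a factor of 2, and a level of 6 or more is taken here as clearly measured. With 1 array per condition there is no error and no test, and in these bulk RNAs fewer expressing cells and less RNA per cell cannot be told apart.

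The 2 Yap1 probe sets read 7.30 and 9.84 in control, 6.63 and 9.15 in mtYAP and 6.61 and 9.51 in YAP, and since the vectors carried the coding sequence and the stretch that the probe sets read is not given, they check neither label. All 10 fibroblast markers examined, lay above 6 on every array. A free-text label of the control mentions an embryonic stem cell experiment, and all 6 stem cell markers were at 4.38 or below. The 19 markers of stem, epithelial, endothelial and blood cells reached at most 4.96. The fibroblast markers themselves averaged 11.25 in control, 10.13 in mtYAP and 10.94 in YAP. Of the 10, Pdgfrb (−2.62), Pdgfra (−2.41), S100a4 (−1.68) and Thy1 (−1.67) lay more than 1 below control in mtYAP and Pdgfrb (−1.10) in YAP, and the part of this shift in the results on the aldehyde oxidases was not tested.

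Aox3 had the widest range of the 10 genes, from 8.54 in control through 5.54 in YAP to 2.88 in mtYAP. Set against control it stood at −5.66 in mtYAP, where 2 of 18193 genes were lower still, and at −3.0 in YAP, where 5 were. Only the control array was above 6, so the factors of 50.6 and 8.0 that these differences correspond to rest on levels near background and are uncertain in size.

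Aox1, its neighbour on chromosome 1, was at 7.68 in control, 3.85 in mtYAP and 6.78 in YAP. It stood at −3.83 in mtYAP, a level 14.2-fold lower with 14 genes lower still, and at −0.90 in YAP, within the 2-fold limit. The mtYAP level was under 6, so that fold and rank are uncertain in size as well. Both genes were thus far lower in mtYAP, while in YAP the difference was large for Aox3 and small for Aox1. Aox4, an aldehyde oxidase of specialized epithelia such as the Harderian gland and skin, was at 2.28, 2.30 and 2.24 in control, mtYAP and YAP, at background on all 3 arrays. No difference is read from values this low.

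Xdh was the gene of this family that stayed well above background everywhere. It read 10.78 for control, 9.70 for mtYAP and 10.49 for YAP. The differences were −1.08 (2.11-fold lower) in mtYAP and −0.29 in YAP, so in mtYAP it lay just past the 2-fold limit.

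**Figure D1:**
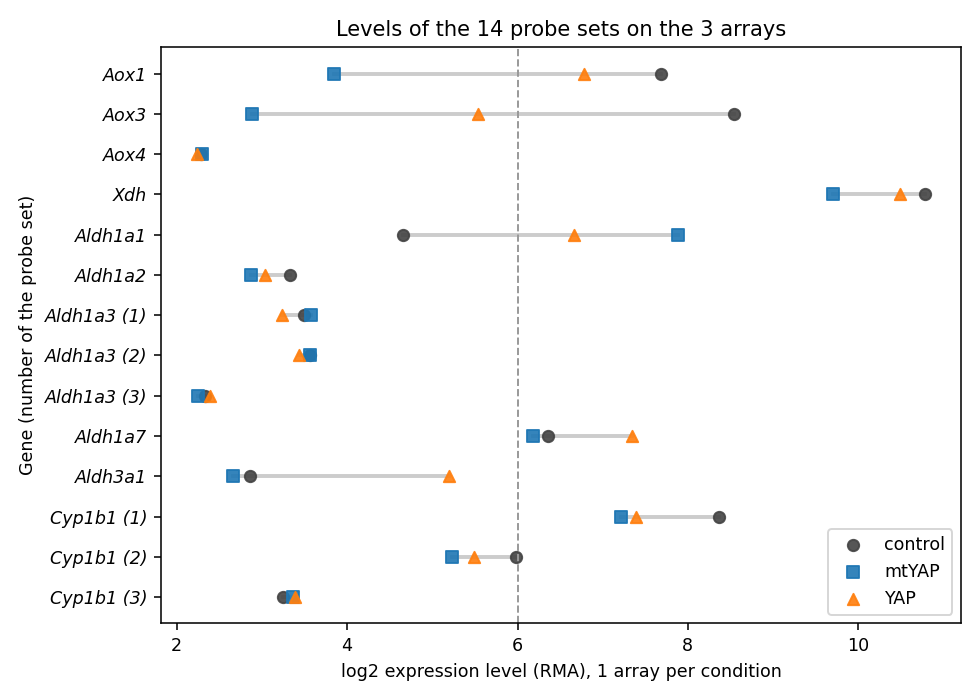
Log2 expression level (horizontal axis) of each of the 14 probe sets (rows, numbered where a gene has 3) in control (circles), mtYAP (squares) and YAP (triangles), with 1 array per condition and a grey line over their range. The dashed line marks a level of 6. Aox1 and Aox3 run from control down to mtYAP with YAP between them, Aldh1a1 runs the other way, and for Aldh3a1 YAP stands apart at 5.20.

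The upstream sequences of Aox1 and Aox3 are shown because these are the genes that stood furthest below control. Each is the run of 250 bases before the RefSeq transcription start (GRCm38.p6, plus strand), Aox1 at chr1:58029719-58029968 and Aox3 at chr1:58112886-58113135. Capitals mark the letters GCGTG on either strand, the core of the xenobiotic response element that the aryl hydrocarbon receptor binds.
Aox1: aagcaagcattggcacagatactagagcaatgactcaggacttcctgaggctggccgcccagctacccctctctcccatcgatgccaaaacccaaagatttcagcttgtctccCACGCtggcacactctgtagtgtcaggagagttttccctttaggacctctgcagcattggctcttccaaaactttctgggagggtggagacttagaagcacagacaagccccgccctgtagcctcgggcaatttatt
Aox3: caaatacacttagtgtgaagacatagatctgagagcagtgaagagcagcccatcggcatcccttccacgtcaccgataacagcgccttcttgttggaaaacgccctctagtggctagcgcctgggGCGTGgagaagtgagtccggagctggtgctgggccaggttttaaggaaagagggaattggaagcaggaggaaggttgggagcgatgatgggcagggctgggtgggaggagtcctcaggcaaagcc

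The aldehyde oxidase genes lie next to each other in the order Aox1, Aox3, Aox4 and Aox2, the last of which is not analysed here. Aox1 and Aox3, chosen in part for their differences, stood further from control than the measured genes around them. Of those, Aox4, Maip1, Spats2l, Ppil3 and Nif3l1 were under 6 on every array, so little is read from their small differences. On the Aox1 side the nearest measured gene, Sgo2a, which protects centromeric cohesion, lay on the other side of control, at 1.33 in mtYAP and 0.63 in YAP. The next 3 genes on that side ranged from −0.82 to 0.05 in mtYAP. On the far side of the cluster, the 4 nearest measured genes Bzw1, Clk1, Ppil3 and Nif3l1 ranged from −0.16 to 0.28 in mtYAP and from −0.27 to 0.34 in YAP.

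**Figure D2:**
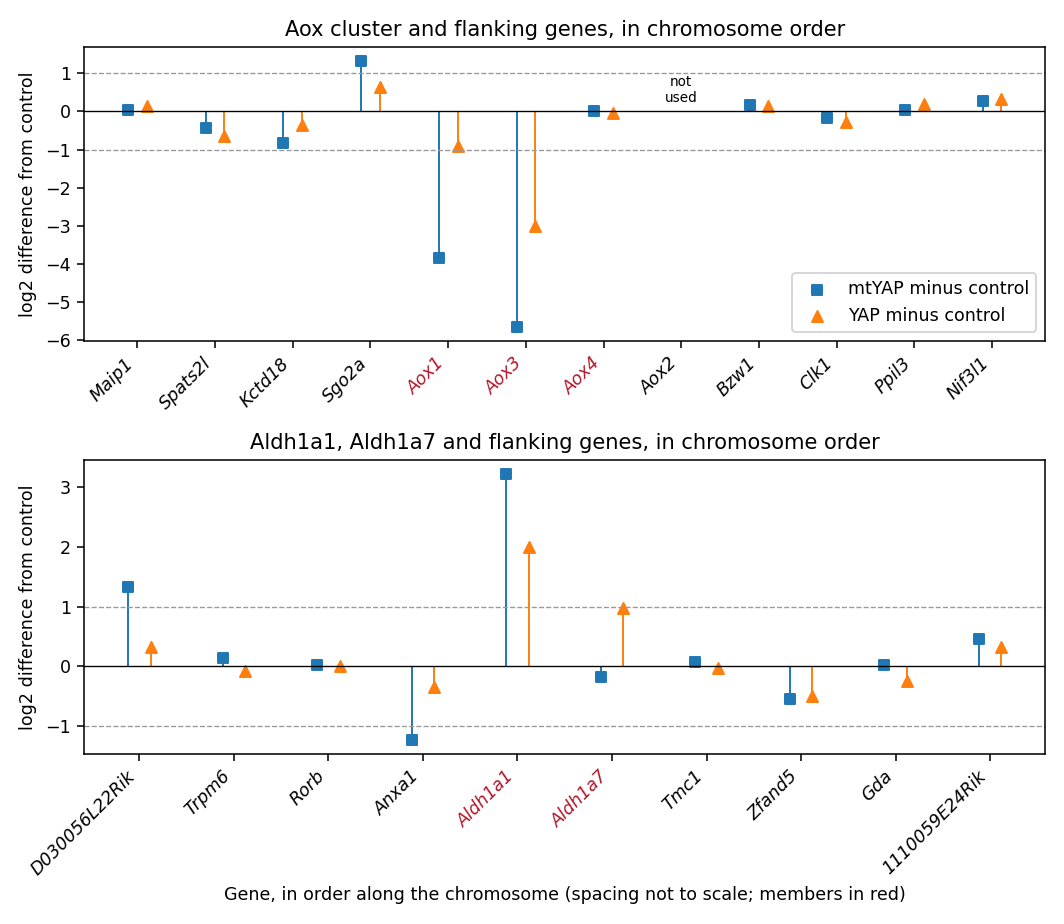
Log2 difference from control (vertical axes) in mtYAP (squares) and YAP (triangles) for genes in their order along chromosome 1 around the Aox cluster (top) and chromosome 19 around Aldh1a1 and Aldh1a7 (bottom), with the genes of this report in red and dashed lines at the 2-fold limit. In mtYAP, Aox1 and Aox3 lie far below 0 between neighbours that lie within 1.33 of it, while in YAP Aox1 lies at only −0.90. Aldh1a1 lies far above 0. Among its flanking genes in mtYAP, Anxa1 lies at −1.24 and D030056L22Rik at 1.325, and the rest lie within the 2-fold limit.

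Of the retinaldehyde dehydrogenases, Aldh1a1 stood out. Control read 4.66, mtYAP 7.88 and YAP 6.66. It differed from control by 3.22 (9.32-fold higher) in mtYAP, with 26 of all genes higher, and by 2.0 (4.0-fold higher) in YAP, with 31 genes higher. Both lines lay above 6 and the control below it, the reverse of the picture at Aox3. These folds and ranks are thus uncertain in size as well.

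Aldh1a7, a mouse paralog of Aldh1a1 that arose by duplication and acts poorly on retinaldehyde, followed another course. It was at 6.36 in control, 6.18 in mtYAP and 7.34 in YAP, all above 6. The differences were −0.18 in mtYAP and 0.98 in YAP, just inside the 2-fold limit. Their differences from control were thus furthest apart in mtYAP, where Aldh1a1 lay 3.22 above control and Aldh1a7 at −0.18. The sequences that their probe sets read are not used here, so how far each also reads the other gene was not tested.

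Aldh1a1 and Aldh1a7 are neighbours on chromosome 19 and the bases just before their starts are shown because they are closely alike while the differences from control were not. Each line gives 100 bases before a RefSeq start (GRCm38.p6), for Aldh1a1 the second of its starts (chr19:20601868-20601967, plus strand) and for Aldh1a7 its only one in the table (chr19:20727557-20727656, minus strand). Capitals mark the bases that differ when the runs are laid side by side without gaps, 6 of 100. Over the whole windows of 300 bases, again without gaps, 59% of positions were the same.
Aldh1a1: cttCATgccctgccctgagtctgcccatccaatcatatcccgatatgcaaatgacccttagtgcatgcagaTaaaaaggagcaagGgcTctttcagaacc
Aldh1a7: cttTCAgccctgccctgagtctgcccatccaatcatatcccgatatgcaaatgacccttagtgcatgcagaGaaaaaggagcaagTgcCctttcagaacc

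The arrays do not tell which of its starts Aldh1a1 used. Over the last 150 bases of the windows, the first start and Aldh1a7 were the same at 29.3% of positions, again without gaps. For the second start the same stretch gave 94.7%. The first start is shown because its window alone among these genes holds GGAATG, the letters bound by TEAD factors, the partners of YAP. Of all windows, 14.7% hold these letters. Capitals mark them on the other strand in the 250 bases before that start (GRCm38.p6, chr19:20492333-20492582, plus strand).
Aldh1a1: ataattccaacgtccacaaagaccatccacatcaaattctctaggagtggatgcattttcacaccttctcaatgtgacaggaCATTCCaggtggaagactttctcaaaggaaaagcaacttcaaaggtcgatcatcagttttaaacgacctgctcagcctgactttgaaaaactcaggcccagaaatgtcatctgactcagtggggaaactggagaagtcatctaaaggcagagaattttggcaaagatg

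Both remaining retinaldehyde dehydrogenases were at background. Aldh1a2, the main source of retinoic acid in the early embryo, was at 3.33 in control, 2.87 in mtYAP and 3.04 in YAP. The 3 probe sets of Aldh1a3 read between 2.33 and 3.56 in control, between 2.25 and 3.57 in mtYAP and between 2.39 and 3.43 in YAP. No statement on a difference can be made for either gene.

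Aldh3a1, which removes aldehydes made by lipid peroxidation and is best known from the cornea, was at 2.86 in control, 2.66 in mtYAP and 5.20 in YAP. The YAP array stood apart, 2.34 above control (5.06-fold), with 19 genes higher, whereas mtYAP differed by −0.20. All 3 levels were under 6, so the difference in YAP rests on 1 dim probe set.

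The 3 probe sets of Cyp1b1, which oxidizes oestrogens, xenobiotics and retinol, did not read alike. The brightest was at 8.36 in control, 7.21 in mtYAP and 7.39 in YAP, differences of −1.15 and −0.97. The second was at 5.98, 5.23 and 5.49 and differed the same way, by −0.75 and −0.49, and the third, at 3.25, 3.37 and 3.39, lay at background. Averaged over all 3, the gene differed by −0.59 in mtYAP and −0.44 in YAP, so whether it passes the 2-fold limit in mtYAP depends on the probe set.

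In mtYAP, 1 of the 10 genes (Aldh1a1) exceeded control by over 1, against 3.77% of all genes, and 3 (Aox1, Aox3 and Xdh) lay below −1, against 4.06%. In YAP, 2 genes (Aldh1a1 and Aldh3a1) lay above 1, against 1.36% of all genes, and 1 (Aox3) lay below −1, against 1.26%. The median difference of the 10 genes was −0.33 in mtYAP and −0.20 in YAP, where that of all genes was 0.02 and 0.00. Since these differences took part in the choice of the genes, nothing is read from the counts. Differences also depend on the starting level. Among genes at 6 or more in control, as Aox1, Aox3 and Xdh were, 8.97% were past −1 for mtYAP and 2.51% for YAP, and among genes under 6 in control, as Aldh1a1 and Aldh3a1 were, 2.98% lay above 1 in mtYAP and 1.22% in YAP. Both comparisons use the same control array.

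**Figure D3:**
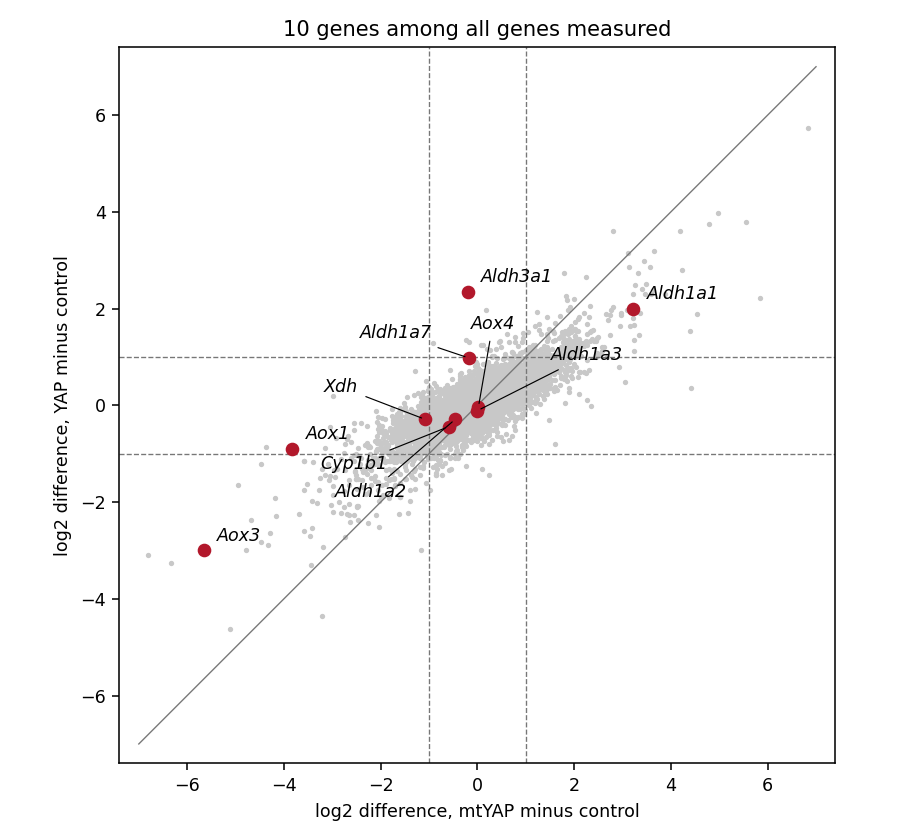
Scatter of all 18193 genes (grey) with the 10 genes described here in red, placed by their log2 difference from control in mtYAP (horizontal) and in YAP (vertical), with dashed lines at the 2-fold limit and a solid line of equal differences. Because both axes subtract the same control array, points spread along the diagonal in part for that reason. Aox3 lies at −5.66 and −3.0, Aldh1a1 at 3.22 and 2.0, and Aldh3a1 at −0.20 and 2.34, away from the main cloud.

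The lines were also compared with each other, which leaves the control array out. The difference of mtYAP from YAP was −2.93 for Aox1, with 6 of all genes lower, −2.66 for Aox3, with 8 lower, and −2.54 for Aldh3a1, with 10 lower. Aldh1a7 stood at −1.16, Xdh at −0.79 and Cyp1b1 at −0.15. In the other direction Aldh1a1 stood at 1.22, with 63 genes higher. Of the 10 genes, 4 lay below −1, against 1.42% of all genes, and 1 lay above 1, against 0.748%. The difference between the lines is fixed by their differences from control, which took part in the choice of the genes. Nothing is therefore read from these counts either. The mtYAP levels of Aox1, Aox3 and Aldh3a1 and the YAP levels of Aox3 and Aldh3a1 were under 6, so the sizes of these 3 differences are uncertain and are not set against each other.

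Genes with the most similar pair of differences from control were sought among 7124 other genes with a level of at least 6 on an array, by the Euclidean distance between the differences in mtYAP and YAP, a likeness over 3 arrays only. Nearest to Aox3 were Cdo1, cysteine dioxygenase, at −6.33 and −3.25, Ptn, pleiotrophin, at −4.78 and −2.98 and Postn, periostin, at −6.80 and −3.09, at distances of 0.715 to 1.14. These distances were the longest of the 4 genes searched for. Cdo1, Ptn and Postn were under 6 in mtYAP, as Aox3 was, so their differences there are uncertain in size. Nearest to Aox1 was Thbs2, thrombospondin 2, at −3.77 and −0.94, a distance of 0.0740, followed by Ptgfr, a prostaglandin receptor, at −3.59 and −1.14 and Rin2, an activator of Rab5, at −3.59 and −1.16. Nearest to Aldh1a1 were Psph, phosphoserine phosphatase, at 3.10 and 1.97, Ptgs2, cyclooxygenase 2, at 3.37 and 1.90 and Rab39b, a small GTPase, at 3.21 and 1.81. Rab39b reached 6 only in mtYAP and was at 3.11 in control, and Ptgfr was under 6 in both lines. The differences of Rab39b and Ptgfr are thus uncertain in size. Xdh lay where genes are dense, and Cc2d2a, Hsd3b7 and Slc25a45 were all within a distance of 0.0300.

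Genes that work beside these enzymes were examined in 6 lists, of which 80 of 90 genes were measured. Their medians lay between −0.02 and 0.18 in mtYAP and between −0.05 and 0.20 in YAP, beside 0.02 and 0.00 over all genes. Many of the listed genes were dim. Over those that reached 6 on an array, 4 to 9 a list, the medians spread more widely, from −0.20 to 0.44 in mtYAP and from 0.00 to 0.56 in YAP, beside −0.02 and 0.03 over the 7129 genes of that level. The highest were 0.44 for the molybdenum cofactor list and 0.42 for the purine list in mtYAP and 0.56 for the aryl hydrocarbon receptor list in YAP, the first and last over 4 genes each. Counts past the limit in each list are to be read against the shares of all genes, 3.77% above and 4.06% below in mtYAP and 1.36% and 1.26% in YAP. Of 22 other enzymes of retinol and retinaldehyde, 2 lay above 1 and 2 below −1 in mtYAP, and 2 and 1 in YAP. Rdh10, which makes retinaldehyde from retinol in embryos, was at 8.27 in control, 6.69 in mtYAP and 7.12 in YAP, differences of −1.58 and −1.14. Dhrs4, a carbonyl reductase that can act on retinaldehyde, stood at −1.44 and −0.57, Adh7, an alcohol dehydrogenase that oxidizes retinol, at 1.09 and 1.01 and Rdh9, under 6 on every array, at 1.19 and 1.11. Cyp26b1, which breaks down retinoic acid, was near 6 throughout, at 6.23, 6.22 and 6.20.

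Of 15 retinoid binding proteins, transporters and receptors, 3 lay above 1 and 1 below −1 in mtYAP, and 1 and 0 in YAP. Crabp1, which binds retinoic acid in the cytosol, was at 11.71 in control, 9.83 in mtYAP and 10.95 in YAP, differences of −1.88 and −0.76. Fabp5, a fatty acid binding protein that also carries retinoic acid, went the other way, from 10.82 to 12.20 in mtYAP and 11.63 in YAP. Rarb, a receptor gene that retinoic acid itself induces in many cells, differed by 1.72 and 1.44, and Crabp2 by 1.43 and 0.33, both under 6 on every array.

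Aldh1l2, the mitochondrial formyltetrahydrofolate dehydrogenase, at 1.80 and 1.38, and Aldh18a1, which starts proline synthesis, at 1.38 and 0.90, were the 2 of 15 other aldehyde dehydrogenases above 1 in mtYAP, where none lay below −1. None of the 8 measured genes for the molybdenum cofactor and its other enzymes, which the aldehyde oxidases and Xdh depend on, passed the limit in either direction in mtYAP or in YAP, and with so few genes nothing is read from that count. Of 12 genes of purine degradation and salvage, Hprt, which returns hypoxanthine to the nucleotide pool, exceeded control by 1.22 and 0.84, and Pnp, which releases hypoxanthine and guanine from their nucleosides, differed by −1.43 and −0.36. The other 10 lay within the limit in both lines.

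In the list of the aryl hydrocarbon receptor, 1 of 8 genes passed the limit, Ahr itself, which was at 5.41 in control, 6.34 in mtYAP and 6.51 in YAP, differences of 0.93 and 1.10. Cyp1a1, the classical target of the receptor, was at 2.91 in control, 3.05 in mtYAP and 3.01 in YAP, at background. Nqo1, a quinone reductase, was at 5.18, 5.07 and 6.10, differences of −0.11 and 0.92. Of the other listed genes, Tiparp, a target that dampens the receptor, stood at 0.54 and 0.21, and Ahrr, its repressor, and Cyp1a2 were under 6 on every array. Arnt, above 6 on every array, lay below control in both lines, at −0.48 and −0.34. Arnt2, under 6 on every array, stood at −0.75 and −0.46.

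**Figure D4:**
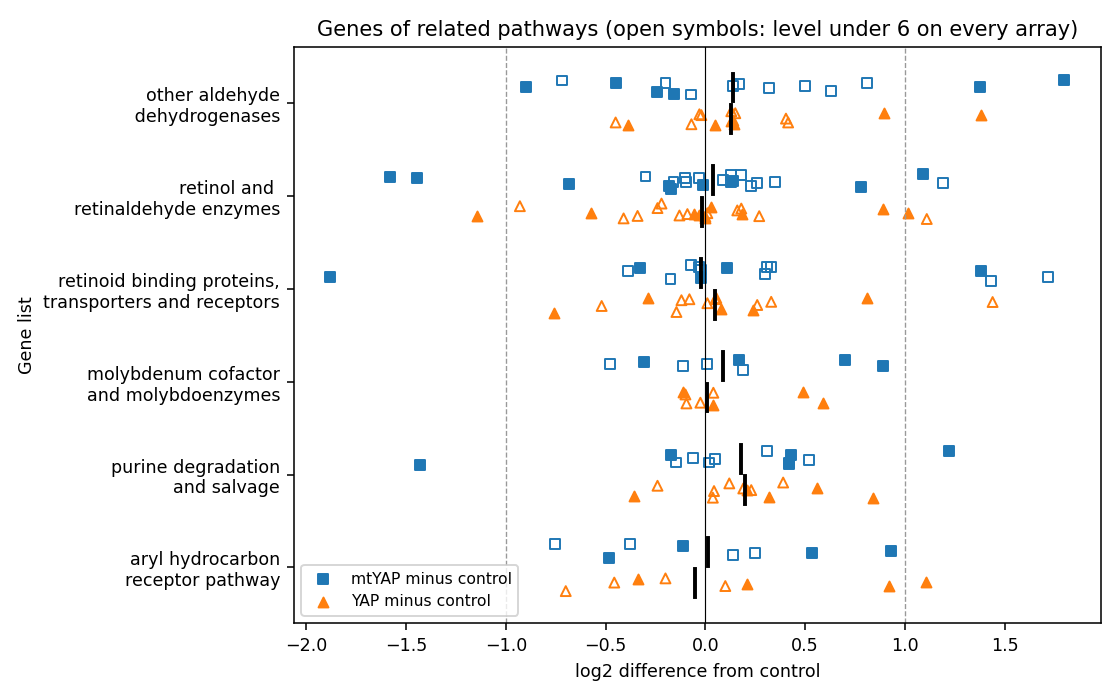
Genes of 6 lists (rows) placed along the horizontal axis by their log2 difference from control in mtYAP (squares) and YAP (triangles), filled where the gene reached a level of 6 on an array, with the list's median as a black bar and dashed lines at the 2-fold limit. The vertical scatter has no meaning. The medians over all measured genes of a list lie between −0.05 and 0.20, those of the filled symbols alone reach 0.56, and genes past the limit lie on both sides in the retinol, retinoid binding and purine lists in mtYAP.

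The RefSeq promoter table (GRCm38.p6, 250 bases before to 50 after a start) matched 7 of the 10 genes with 8 windows, and Xdh, Aldh1a3 and Aldh3a1 had none. The letters GGAATG, searched on both strands, were in 1 of the 8 windows, the first start of Aldh1a1 at 168 bases before it, and in 14.7% of all 32851 windows. GCGTG was found once in the windows of Aox1, Aox3, Aldh1a2 and Cyp1b1, 4 of 8, where 32.4% of all windows hold it. TGACNNNGC, an antioxidant response element, was found in Aldh1a2 alone (12.4% of all windows), and CACGTG, the E-box that MYC binds, in Aox4 alone (7.15%). None of these matches overlap. A match describes the letters of this window and is not evidence of a bound site.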

How the data were processed

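Log2 expression levels were deposited per probe set for 3 arrays (Affymetrix GeneChip mouse genome arrays, biotin-labelled cRNA), which the authors had background subtracted and normalized by RMA in R. RMA and affy are the tools listed in the submitters' processing notes, without versions. RMA pulls dim probe sets together, so differences at low levels are understated. Gene symbols came from GEO's platform annotation. Of 45037, 34945 have 1 gene symbol and were averaged per gene (18193 genes), while 932 with several and 9160 with none were left out. All 10 member symbols matched the RefSeq table of GRCm38.p6.

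Control was subtracted from mtYAP and from YAP, and YAP from mtYAP. Genes above 1 or below −1 were counted, with no test, since each condition has 1 array, whose number limits the precision. The arithmetic was tested on simulated data. Members and lists were chosen with earlier results of these data known. From each list the genes past the limit in either line are named, up to 8. Cyp26b1, Cyp1a1, Cyp1a2, Ahrr, Arnt, Arnt2, Tiparp, Nqo1 and the neighbouring genes fall outside this rule and were picked after their values were seen. Similar genes were sought for Xdh, the member with the highest mean level, and for the members past the limit in mtYAP. Alternatives concerned how probe sets are joined, low levels, scaling and the limit. Python 3.11.15, numpy 2.4.6, pandas 2.3.3, statsmodels 0.14.6 and matplotlib 3.10.9 were used.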

Additional observations from a re-analysis of the deposited data

Results flagged for a closer look

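Aldh3a1 and Aldh1a7 differed from control by more in YAP than in mtYAP, with the signs of the measured differences opposite and more than 1 between them on the log2 scale. The gap between the difference in YAP and that in mtYAP was 2.54 for Aldh3a1 and 1.16 for Aldh1a7. With 1 array per condition the gap was not tested. Aldh3a1 was at background in control and mtYAP, so no side of control is read from its −0.20 in mtYAP, and Aldh1a7 was at only −0.18 there.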

How the results depend on the processing

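The 6 counts of members were recomputed under 9 alternatives, and most of them kept their value or stayed within 1.5 times of it. With a level of at least 8 required on an array, 0 members were above 1 in mtYAP, 0 in YAP and 0 in mtYAP against YAP, and 1 was below −1 in mtYAP against YAP, because Aldh1a1, Aldh1a7, Aldh3a1 and Aox1 do not reach that level. With a level of at least 6, 1 member was above 1 in YAP, because Aldh3a1 is left out. With a limit of 0.65, 2 members were below it in YAP, where Aox1 joined Aox3. Of 150 recomputed differences of single members, 149 stayed on the same side of the limit and none changed sign where past it. The exception was Cyp1b1 in mtYAP, at −1.15 when its brightest probe set stood for the gene. Taking a loess trend on expression level out of the differences moved no member by more than 0.0736. No paired analysis was possible because each condition has 1 array.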
